A study of Rattus norvegicus with 7 samples.

Results

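The genes described here take up fatty acids, activate them, carry them into mitochondria and break them down by beta-oxidation. They were chosen by name as a list of 32 symbols, of which 31 matched a gene among the 20660 in the count table; Cd36 matched none and is not analysed here. RNA had been sequenced from synovium, the lining tissue of the joint, of 7 male SD rats aged 3 months. In the 4 rats of the MIA group, 0.1 mL of MIA at 10 mg per kg had been injected into the right knee, and the tissue was taken 4 weeks later. The label does not expand the abbreviation, which in this knee osteoarthritis model commonly means monosodium iodoacetate, a blocker of glycolysis. Pentobarbital (3%) is listed for all 7 rats, controls included. The 3 control rats otherwise received no treatment, and no vehicle injection is described. An effect of MIA and an effect of injecting the joint therefore cannot be told apart. Each library was made from the tissue of 1 rat, and p-values measure the spread between these libraries. Libraries are called by the numbers of the labels, control 2 to 4 and MIA 1 to 4.

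Long-chain fatty acids reach cells from circulating lipids that lipoprotein lipase splits in capillaries, and inside the cell they are bound by small carrier proteins and joined to coenzyme A. The carnitine shuttle then moves the acyl groups across the inner mitochondrial membrane, where repeated rounds of dehydrogenation, hydration, a further dehydrogenation and thiolysis shorten the chain and feed electrons into the respiratory chain. Skeletal muscle, heart, liver and brown fat rely on this pathway.

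Of the 30 members that passed the filter on low counts, 27 were lower in MIA synovium, 0 were higher and 3 were not called by the edgeR quasi-likelihood test with Benjamini-Hochberg adjustment over all 14054 tested genes (adjusted p under 0.05). Over all tested genes, 40.6% were called, 19.5% lower and 21.1% higher. The falls reached most steps of the pathway, from Fabp3 and Acsl1 through the carnitine system to the dehydrogenases and the mitochondrial trifunctional protein, and 24 members fell at least 2-fold, against 12.7% of all tested genes. The median log2 change of the tested members was -2.10, against 0.07 over all tested genes, and the members ranged from -3.56 for Cpt1b to -0.25 for Cpt1a. In 28 members every MIA library lay below every control library, a pattern found in 24.4% of all tested genes; the opposite pattern, found in 24.8% of all tested genes, held in 0 members. No tested member was higher at an unadjusted p under 0.05, by edgeR, DESeq2 or limma-voom (0 of 30 in each).

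**Figure D1:**
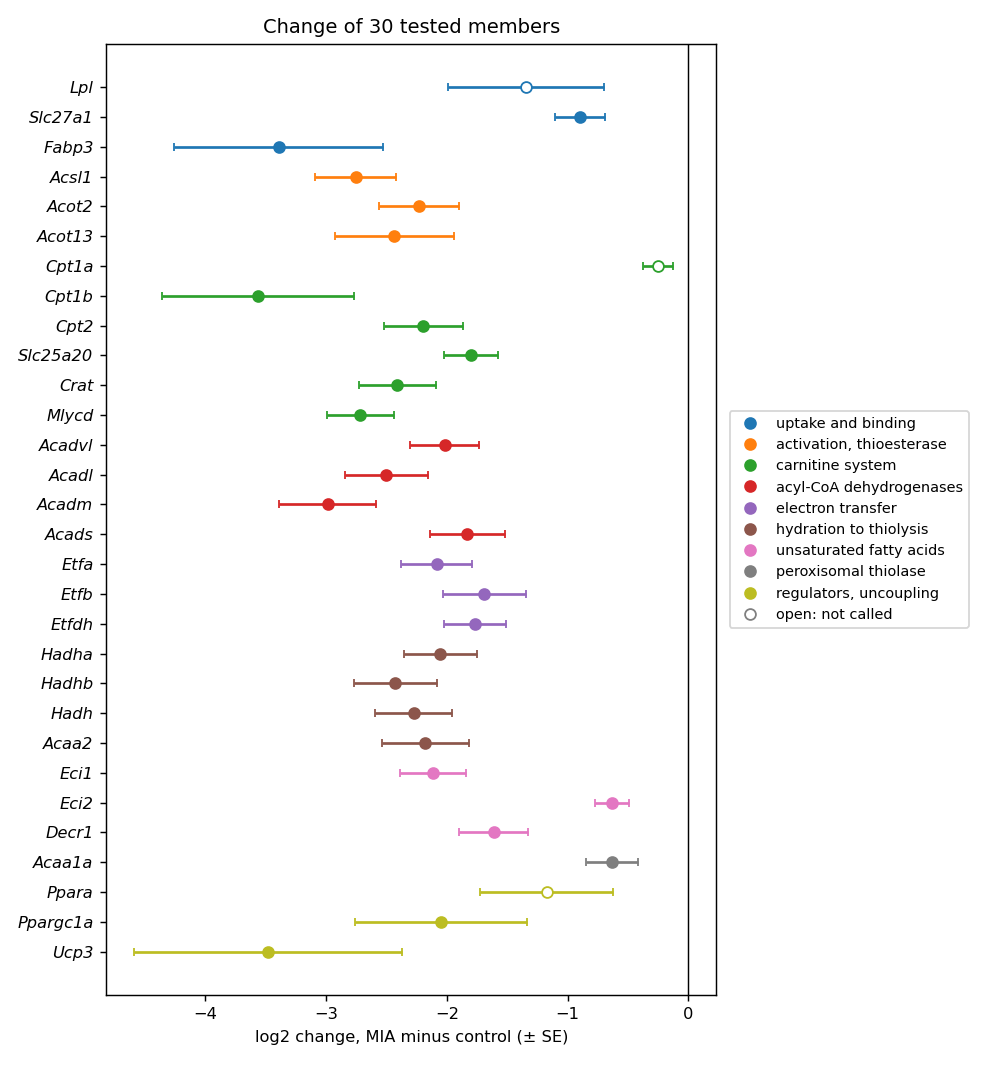
Log2 change (MIA minus control, x axis) of the 30 tested members (y axis), with bars of 1 SE, coloured by role; filled points were called lower and open points were not called. All points lie left of 0, from -3.56 for Cpt1b to -0.25 for Cpt1a.

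The 7 libraries held between 13870822 and 16261089 counts. Genes of skeletal muscle contraction were prominent in the control libraries: the 21 listed muscle genes took 13.2%, 12.6% and 14.8% of the counts in control 2, 3 and 4, and 2.34%, 0.0380%, 4.57% and 2.64% in MIA 1, 2, 3 and 4. Control libraries averaged 13.5% ± 1.15 (SD, n = 3) and MIA libraries 2.39% ± 1.86 (SD, n = 4), with an exact two-sided permutation p of 0.0286, the smallest that 35 assignments can give, and 0.0856 after adjustment over 9 marker lists. Every one of these 21 genes was lower in every MIA library than in every control library, a pattern found in 24.4% of all tested genes. Of the 21, 4 were called lower, close to the 19.5% called lower over all tested genes. Acta1, skeletal muscle actin, had a scaled FPKM of 25073, 27949 and 31465 in the controls and 2864, 48.0, 6946 and 3944 in the MIA libraries. Its log2 change of -3.03 ± 1.15 did not pass (adjusted p = 0.0645, edgeR), but did without MIA 2 (-2.61, adjusted p = 0.00392). The share of 11 listed fibroblast genes was 0.696% ± 0.167 (SD, n = 3) in controls and 6.67% ± 1.78 (SD, n = 4) in MIA libraries, and that of 10 macrophage genes 0.0412% ± 0.00795 (SD, n = 3) and 0.154% ± 0.0471 (SD, n = 4), each with an exact permutation p of 0.0571 and an adjusted p of 0.0856. Col1a1 and Col3a1, fibrillar collagens, alone took 0.126% to 0.378% of the counts in controls and 3.70% to 7.03% in MIA libraries. The other 9 fibroblast genes took 0.379% to 0.531% and 0.278% to 1.07%, with overlap. Of the 11 genes 5 were called higher, 1 lower (Clic5, -2.29 ± 0.43, adjusted p = 0.00482, edgeR) and 5 not. Over all tested genes 21.1% were higher and 19.5% lower. Col1a1 and Clic5 were named after their values were seen. Because these are bulk libraries, fewer cells of a type and less RNA per cell cannot be told apart. The part of the muscle transcripts in the changes below was not tested, but values that bear on it are given with each role.

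All levels below are scaled FPKM, the deposited FPKM divided by the normalization factor of its library, so they are per gene length and can be set side by side. Promoter sequences of 4 members are printed here, because Hadha and Acadm are called members of the main oxidation steps, Ucp3 had by ratio the widest range among MIA libraries, and Cpt1a was not called. Each is the 250 bases before the annotated start, 5′ to 3′ on the gene's strand, from RefSeq on build GRCr8, at chr6:31907551-31907800 (plus strand) for Hadha, chr2:245542865-245543114 (minus strand) for Acadm, chr1:164227660-164227909 (plus strand) for Ucp3 and chr1:209995910-209996159 (plus strand) for Cpt1a. Capitals mark AGGTCA, the hexamer that nuclear receptors such as Ppara recognize, and CAGCTG, an E-box of the kind that myogenic factors bind.
Hadha: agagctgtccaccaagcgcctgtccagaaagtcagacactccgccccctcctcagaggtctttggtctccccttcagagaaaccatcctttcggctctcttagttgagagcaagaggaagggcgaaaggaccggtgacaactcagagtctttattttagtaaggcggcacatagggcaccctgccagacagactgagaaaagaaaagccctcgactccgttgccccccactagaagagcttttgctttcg
Acadm: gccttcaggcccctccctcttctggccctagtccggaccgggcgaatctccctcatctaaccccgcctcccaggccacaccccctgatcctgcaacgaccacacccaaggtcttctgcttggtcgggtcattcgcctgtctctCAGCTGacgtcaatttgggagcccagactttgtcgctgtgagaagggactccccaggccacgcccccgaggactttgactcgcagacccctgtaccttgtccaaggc
Ucp3: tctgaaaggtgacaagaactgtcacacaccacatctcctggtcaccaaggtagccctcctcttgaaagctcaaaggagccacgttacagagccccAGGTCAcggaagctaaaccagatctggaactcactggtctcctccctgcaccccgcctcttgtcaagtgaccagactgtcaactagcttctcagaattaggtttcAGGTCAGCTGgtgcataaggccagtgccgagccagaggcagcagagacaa
Cpt1a: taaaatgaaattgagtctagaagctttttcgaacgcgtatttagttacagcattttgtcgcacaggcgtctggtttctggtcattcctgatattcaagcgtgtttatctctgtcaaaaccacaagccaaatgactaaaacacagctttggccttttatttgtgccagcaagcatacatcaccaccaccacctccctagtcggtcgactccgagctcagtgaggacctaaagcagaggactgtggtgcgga
The Ucp3 window held AGGTCA at -155 and -50 and a CAGCTG at -46 that overlaps the latter, counted from the start site, and the Acadm window held CAGCTG at -107. No match of either was found in the Hadha and Cpt1a windows. AGGTCA, read on both strands, was in 5 of the 26 member promoters with an entry (Acadvl, Echs1, Eci1, Slc27a1 and Ucp3) and in 14.1% of all 33469 promoters. CAGCTG was in 5 of 26 (Acadm, Eci2, Mlycd, Slc27a1 and Ucp3) and in 12.0% of all promoters. AGGTCA preceded by TCA, found in 0.388% of all promoters, and 2 copies of AGGTCA with 1 base between them, found in 0.0508%, were in 0 of 26. These windows had a median GC content of 60.0% and 12.5 CpG sites, against 51.2% and 5.0 over all promoters, with 32 CpG sites in Acot13 and 1 in Acsl1. Hadha and Hadhb, whose products form 1 enzyme, are annotated head to head on chromosome 6 with 300 bases between their starts.

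Among the genes of uptake and binding, 2 of 3 tested members were lower. Fabp3, the fatty acid binding protein of heart and muscle, had 78.3, 294 and 494 in control 2, 3 and 4 and 13.8, 5.26, 57.2 and 33.5 in MIA 1, 2, 3 and 4. Every MIA library lay below every control library, although the controls themselves spanned a wide range. Fabp3 fell 10.5-fold (log2 change -3.39 ± 0.86, adjusted p = 0.0172, edgeR), a call lost without control 4 (-2.77, adjusted p = 0.0672) and without the filter (adjusted p = 0.0549). Slc27a1, the long-chain fatty acid transport protein of muscle and fat, had 22.7, 22.4 and 33.8 in the controls and 12.1, 16.0, 11.8 and 16.5 in the MIA libraries. Its groups did not overlap, and it fell 1.86-fold (-0.90 ± 0.21, adjusted p = 0.0107), although scaling by library totals ended the call (-0.45, adjusted p = 0.0992). Lpl, lipoprotein lipase, had 92.6, 158 and 238 in the controls and 27.1, 156, 35.4 and 37.9 in the MIA libraries. MIA 2 stood at the level of control 3, whereas the other MIA libraries lay below all controls. Its log2 change of -1.34 ± 0.65 was not called (adjusted p = 0.129, edgeR), but it was lower without MIA 2 (-2.27, adjusted p = 0.00322) and by DESeq2 (adjusted p = 0.0473). Cidea, a lipid droplet protein of brown and white fat, was also highest in MIA 2 among the MIA libraries. It had 11.4 there against 0.767, 1.68 and 2.03 in MIA 1, 3 and 4. The controls had 17.2, 15.5 and 21.9, all above MIA 2. Elovl3, the other matched gene of the brown fat list, had 0.0999 in MIA 2 against 0.156, 0.0565 and 0, too few counts to be tested. Ucp3, a gene of muscle and brown fat, was lowest in MIA 2 (0.130). Of the listed adipocyte genes, the 9 other than Plin4 and Gpd1 together took 0.0499% of the counts in MIA 2. They took 0.0232%, 0.0266% and 0.0374% in MIA 1, 3 and 4. Plin4 and Gpd1 went the other way, with 0.00589% in MIA 2 against 0.0186%, 0.0337% and 0.0162%. This split was made after the values were seen. The part of brown or white fat transcripts in the Lpl value was not tested.

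All 3 genes of activation and thioester cleavage were lower. Acsl1, the long-chain acyl-CoA synthetase of muscle, fat and liver, had 45.0, 100.1 and 124 in the controls and 10.8, 15.0, 14.4 and 12.9 in the MIA libraries. The 4 MIA libraries lay close together and below all controls, and MIA 2, which had the fewest muscle transcripts, had the highest of them. Acsl1 fell 6.75-fold (-2.75 ± 0.34, adjusted p = 0.00119, edgeR). Acot13, a thioesterase at mitochondria, had 32.3, 55.8 and 57.0 in the controls and 7.53, 2.59, 13.7 and 11.8 in the MIA libraries. It fell 5.40-fold (-2.43 ± 0.49, adjusted p = 0.00655), with MIA 2 lowest. Acot2, a mitochondrial thioesterase, was also lower (-2.23 ± 0.34, adjusted p = 0.00212), but its near-identical neighbour Acot1 makes its counts uncertain.

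The carnitine system held the largest and the smallest change. Cpt1b, the outer-membrane carnitine palmitoyltransferase of muscle, had 64.5, 129.9 and 154 in the controls and 7.51, 1.08, 13.3 and 17.3 in the MIA libraries. The groups were far apart, and MIA 2 stood at 0.928% of the control mean. Cpt1b fell 11.8-fold (-3.56 ± 0.80, adjusted p = 0.0104, edgeR). Cpt1a, the form that liver and most other tissues use, had 9.84, 9.43 and 9.15 in the controls and 7.80, 7.89, 8.23 and 7.83 in the MIA libraries. Its groups did not overlap, yet the difference was small and was not called (-0.25 ± 0.13, adjusted p = 0.135). The sign of the Cpt1a change turned with library totals (0.19) and with FPKM in limma (0.17), so no direction is given for it. The level of Cpt1b over that of Cpt1a was 6.55, 13.8 and 16.8 in the controls and 0.963, 0.137, 1.62 and 2.21 in the MIA libraries. Cpt1b was thus the more abundant transcript per length in every control library, and Cpt1a in MIA 1 and MIA 2.

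The other carnitine genes were all lower. Slc25a20, the carnitine-acylcarnitine carrier, had 45.4, 74.1 and 87.5 in the controls and 19.9, 18.6, 21.2 and 19.6 in the MIA libraries. The MIA values were almost level, MIA 2 included, and the fall was 3.48-fold (-1.80 ± 0.22, adjusted p = 0.00124, edgeR). Cpt2, the inner-membrane transferase, had 29.2, 48.0 and 58.7 against 9.72, 5.44, 12.3 and 12.1 (-2.19 ± 0.33, adjusted p = 0.00209). Crat, carnitine acetyltransferase, which buffers acetyl-CoA, had 197, 263 and 310.3 against 45.8, 27.8, 56.6 and 63.2 (-2.41 ± 0.32, adjusted p = 0.00141). Both had their lowest level in MIA 2, and neither gene's groups overlapped. Mlycd, malonyl-CoA decarboxylase, removes the malonyl-CoA that blocks the outer-membrane transferases; it had 45.8, 43.6 and 78.6 against 7.98, 6.11, 11.2 and 8.73. It fell 6.58-fold (-2.72 ± 0.28, adjusted p = 0.000824), the smallest adjusted p among the members.

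**Figure D2:**
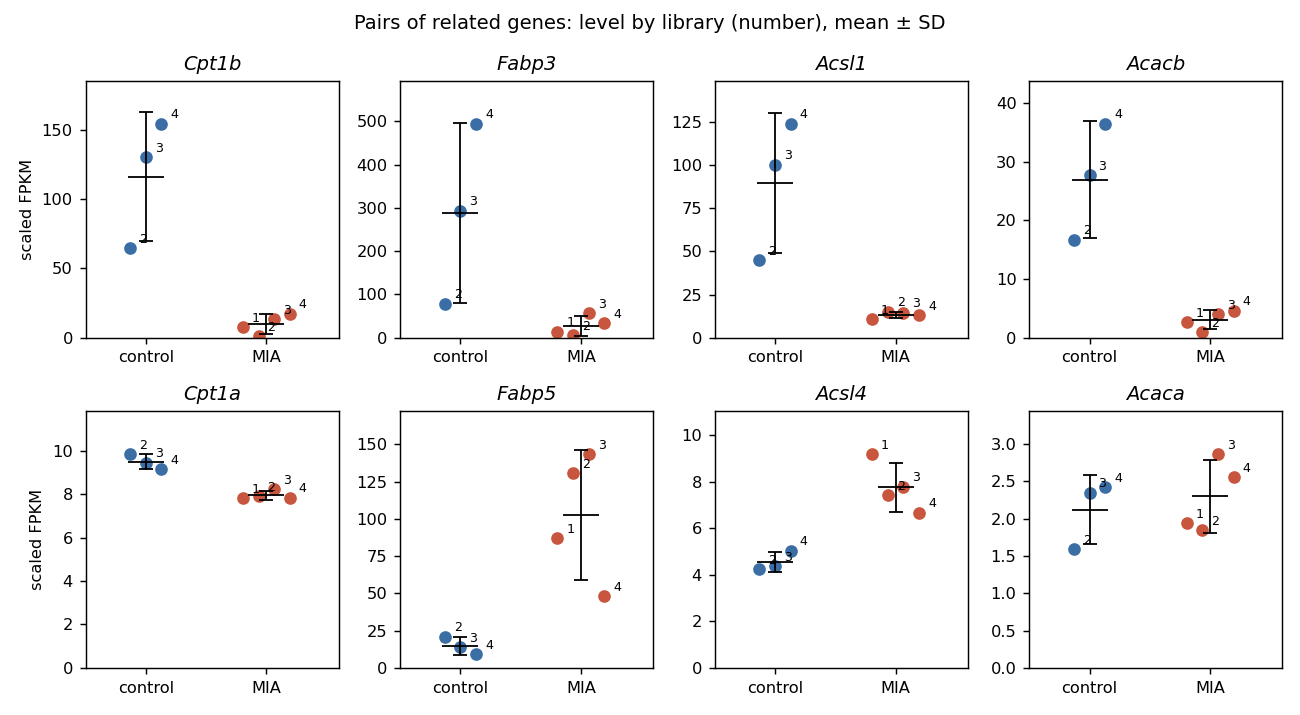
Scaled FPKM (y axes from 0, each panel with its own range) of 4 pairs of related genes in the control and MIA libraries (points, numbered by library), with group mean and bars of 1 SD. The upper gene of each pair was lower in all 4 MIA libraries, whereas below it Fabp5 and Acsl4 were higher and Cpt1a and Acaca were not called.

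All 4 acyl-CoA dehydrogenases, which take the first step of each round on chains of decreasing length, were lower. Acadm, for medium chains, had 241, 391 and 499 in the controls and 35.8, 26.9, 56.6 and 71.0 in the MIA libraries. No MIA library came near a control, and MIA 2 had 7.13% of the control mean. Acadm fell 7.92-fold (-2.99 ± 0.40, adjusted p = 0.00150, edgeR). Acadl, for long chains, had 183, 251 and 428 against 41.4, 36.7, 58.1 and 66.5 (-2.50 ± 0.34, adjusted p = 0.00161). Acadvl, the very-long-chain enzyme of the inner membrane, had 99.1, 157 and 197 against 32.7, 30.2, 35.8 and 50.4 (-2.02 ± 0.29, adjusted p = 0.00175). Acads, for short chains, fell least, with 47.6, 63.3 and 76.6 against 13.6, 11.9, 28.1 and 16.5 (-1.83 ± 0.31, adjusted p = 0.00326). In all 4 genes control 2 was the lowest control and MIA 2 the lowest MIA library.

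The electron transfer genes, which pass electrons from these dehydrogenases to ubiquinone, were all 3 lower. Etfa, a subunit of the electron transfer flavoprotein, had 129, 229 and 284 in the controls and 44.3, 40.0, 63.0 and 54.7 in the MIA libraries. Its partner subunit Etfb had 84.5, 142 and 152 against 33.3, 24.1, 63.6 and 35.4. In both subunits MIA 3 was the highest MIA library and control 2 the lowest control, with no overlap. The log2 changes were -2.08 ± 0.29 for Etfa (adjusted p = 0.00175, edgeR) and -1.69 ± 0.34 for Etfb (adjusted p = 0.00626). Etfdh, the ubiquinone oxidoreductase of this chain, had 44.3, 70.4 and 87.7 against 18.4, 15.1, 22.9 and 22.8 (-1.77 ± 0.26, adjusted p = 0.00200).

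The later steps of each round gave the same picture in the 4 tested genes. Hadha and Hadhb encode the subunits of the mitochondrial trifunctional protein, which hydrates, dehydrogenates and cleaves long chains. Hadha, whose promoter is printed above, had 130.2, 176 and 275 in the controls and 45.6, 34.5, 55.1 and 51.2 in the MIA libraries (-2.06 ± 0.30, adjusted p = 0.00198, edgeR). Hadhb had 285, 366 and 559 against 70.8, 44.9, 95.7 and 88.6 (-2.43 ± 0.35, adjusted p = 0.00178). The libraries of both genes stood in the same order, with control 4 highest and MIA 2 lowest. Hadh, the hydroxyacyl-CoA dehydrogenase for shorter chains, had 52.2, 84.6 and 100.4 against 12.2, 10.98, 19.7 and 22.3 (-2.28 ± 0.32, adjusted p = 0.00171). Acaa2, the mitochondrial thiolase, had 108, 135 and 235 against 28.8, 22.0, 51.6 and 38.3 (-2.18 ± 0.36, adjusted p = 0.00287). Neither gene's groups overlapped, and MIA 2 was again lowest. Echs1, the short-chain hydratase, had 10, 7 and 14 counts in the controls and 1, 8, 15 and 3 in the MIA libraries, too few to pass the filter.

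The auxiliary enzymes that bring unsaturated chains into the cycle were all 3 lower. Eci1, a mitochondrial enoyl-CoA isomerase, had 85.0, 106 and 181 in the controls and 24.1, 28.9, 35.7 and 25.6 in the MIA libraries (-2.11 ± 0.27, adjusted p = 0.00137, edgeR). Decr1, a dienoyl-CoA reductase, had 44.7, 58.4 and 101 against 22.3, 21.3, 27.6 and 17.5 (-1.61 ± 0.28, adjusted p = 0.00367). In both genes all MIA libraries lay below the lowest control and MIA 2 was not the lowest of them. Eci2, an isomerase of peroxisomes and mitochondria, had 28.6, 27.8 and 33.7 against 20.3, 19.8, 17.5 and 19.8. It fell only 1.55-fold (-0.63 ± 0.14, adjusted p = 0.00890), and scaling by library totals ended the call (-0.19, adjusted p = 0.266). Acaa1a, a peroxisomal thiolase with a near-identical copy, Acaa1b, that makes its counts uncertain, had 24.7, 22.9 and 22.2 against 14.0, 18.4, 17.4 and 10.3. Its fall of 1.55-fold (-0.63 ± 0.22, adjusted p = 0.0458) was lost without any 1 library other than MIA 2 or MIA 3 (adjusted p = 0.0662 to 0.112) and with library totals (adjusted p = 0.515).

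Of the regulators and the uncoupling protein, 2 of 3 were called lower, and the MIA values of all 3 were scattered. Ucp3, the mitochondrial carrier of muscle and brown fat that follows fatty acid supply, had 70.6, 58.2 and 74.2 in the controls and 11.6, 0.130, 1.59 and 10.9 in the MIA libraries. The counts behind these values were 3472, 2279 and 3120 in the controls and 667, 7, 101 and 713 in MIA 1 to 4. The controls lay close together, whereas MIA 2 and MIA 3 lay far below MIA 1 and MIA 4. Ucp3 fell 11.2-fold (-3.48 ± 1.11, adjusted p = 0.0387, edgeR), a call that leaving out any 1 library other than MIA 2 ended (adjusted p = 0.0525 to 0.0963). The call was also lost without the filter (adjusted p = 0.116, edgeR) and with the adipocyte list level as a covariate (adjusted p = 0.0897, edgeR). Ppargc1a, a coactivator that drives mitochondrial genes, had 1.43, 3.18 and 1.88 against 0.284, 0.209, 1.36 and 0.212. MIA 3 stood just under the lowest control, with the other MIA libraries well below. The fall of -2.05 ± 0.71 (adjusted p = 0.0487) was lost without any 1 library other than MIA 3 (adjusted p = 0.0672 to 0.163) and with library totals (adjusted p = 0.112); without MIA 3 it was -3.20 (adjusted p = 0.00255). Ppara, the nuclear receptor that fatty acids activate, had 0.658, 1.03 and 1.42 against 0.225, 0.359, 0.889 and 0.347. MIA 3 overlapped the controls and the change was not called (-1.17 ± 0.55, adjusted p = 0.118), but it was without MIA 3 (-1.74, adjusted p = 0.0209).

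**Figure D3:**
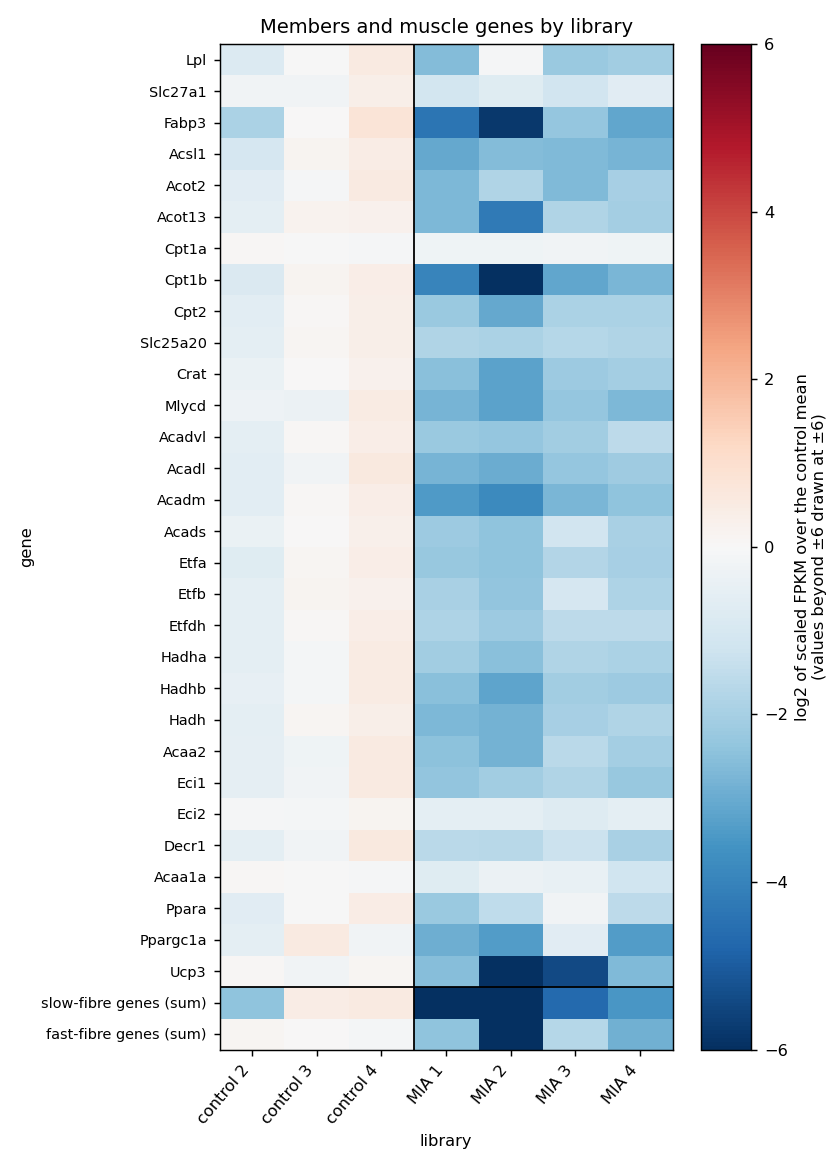
Log2 of scaled FPKM over the control mean (colour) for the 30 tested members and the sums of 5 slow-fibre and 7 fast-fibre muscle genes (y axis) in each library (x axis). Blue marks levels under the control mean; among the controls, control 2 is the bluest for most members and for the slow-fibre sum. In MIA 2, Cpt1b, Ucp3 and both muscle sums reach the dark end of the scale.

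The members also varied within each group. Control 2 was the lowest control in 24 of 31 members and control 4 the highest in 28, ranks that were not counted over all tested genes. The level of control 2 over the mean of controls 3 and 4 was under 1 in 27 of 30 tested members (90%), with a median of 0.565, whereas it was under 1 in 50.2% of all tested genes, with a median of 0.998. The muscle genes differed in kind between the same libraries. The 5 slow-fibre genes Myh7, Myl2, Tnnc1, Tnni1 and Tnnt1 summed to 1385, 10204 and 10840.0 scaled FPKM in control 2, 3 and 4, a ratio of 0.132 for control 2. The 7 fast-fibre genes Myh1, Mylpf, Tnnc2, Tnni2, Tnnt3, Actn3 and Pvalb summed to 42560.0, 39728 and 35723, a ratio of 1.13. The split into slow and fast genes was chosen after their values were seen. Slow oxidative fibres are known for their high capacity for fatty acid oxidation; the part of fibre type in the members' values was not tested.

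In the MIA group, MIA 2 was nearly free of muscle transcripts. Each of the 21 muscle genes stood in MIA 2 at between 0.00483 and 0.0454 of its mean in the other 3 MIA libraries, with a median of 0.00930. The median of the 30 tested members was 0.672, and that of all tested genes 0.985. Ucp3 (0.0161), Cpt1b (0.0847), Fabp3 (0.151) and Acot13 (0.235) were the members nearest to the muscle genes. In 7 members, led by Lpl (4.67), the level in MIA 2 was above the mean of the other MIA libraries. The same held in 6758 of 14029 tested genes. A ratio under 0.5 was found in 7 members (23.3%) and in 8.99% of all tested genes. MIA 2 was the lowest of all 7 libraries in 20 of 31 members, and MIA 3 the highest MIA library in 18. These ranks were not counted over all tested genes. The muscle genes took 0.0380% of the counts in MIA 2 and 4.57% in MIA 3, and their part in these ranks was not tested.

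**Figure D4:**
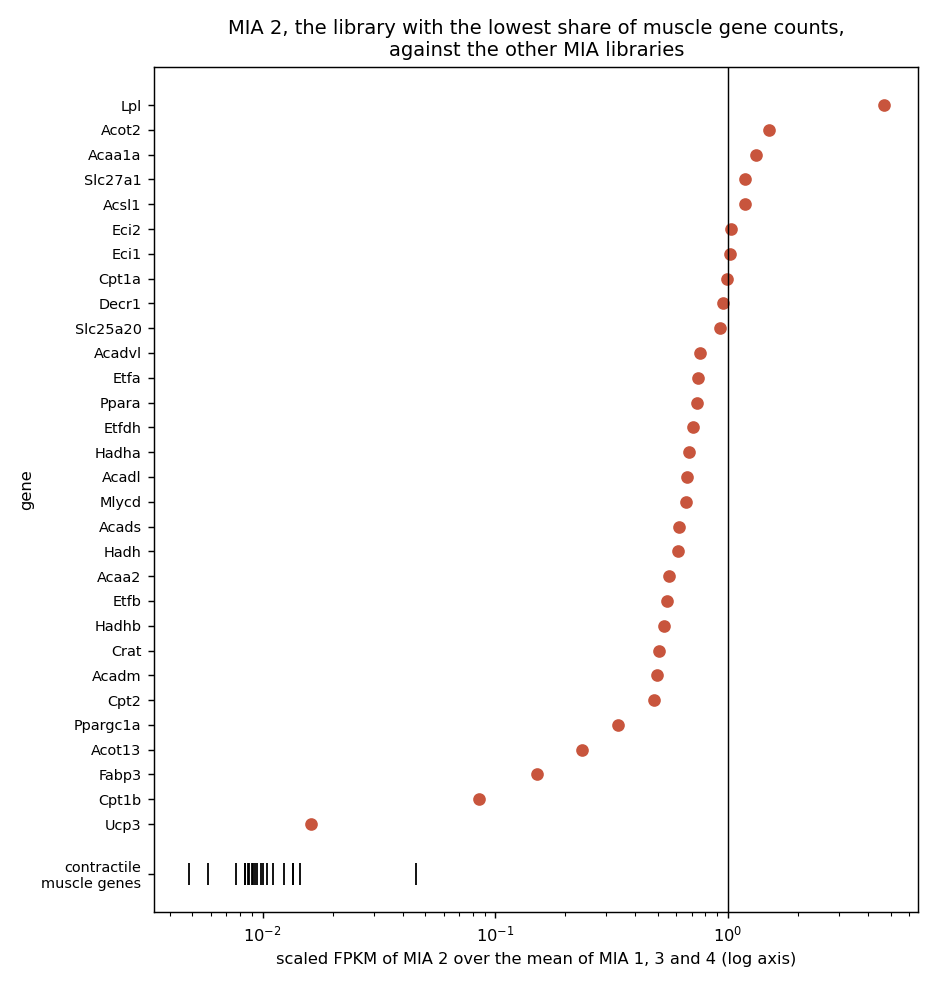
Scaled FPKM in MIA 2 over the mean of MIA 1, 3 and 4 (x axis, log scale) for the 30 tested members (points, y axis) and the 21 muscle genes (ticks in the lowest line); the vertical line marks equal levels. The muscle genes lie between 0.00483 and 0.0454, the members between 0.0161 for Ucp3 and 4.67 for Lpl.

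With the muscle list's level per library (mean log2 CPM) as a covariate, 935 of all 14054 tested genes were called lower and 1220 higher (edgeR). Of the members, 15 of the 27 calls remained and Lpl was added, 16 in all. Those lost were Fabp3 (-1.45), Slc27a1 (-1.03), Acot13 (-0.99), Cpt1b (-1.31), Acads (-1.21), Etfb (-0.96), Acaa2 (-1.46), Decr1 (-1.47), Eci2 (-0.68), Acaa1a (-0.92), Ppargc1a (-0.83) and Ucp3 (-0.51), in log2 changes. The calls of Acadm (-2.15, adjusted p = 0.0240), Hadhb (-1.70, adjusted p = 0.0304), Hadh (-1.63, adjusted p = 0.0327), Cpt2 (-1.37, adjusted p = 0.0337) and Crat (-1.66, adjusted p = 0.0205) were among those kept. That fit leans on MIA 2, whose muscle level was 2.63 against 7.70 to 9.41 in the other MIA libraries and 11.4 to 12.2 in the controls. Without MIA 2 it called 0 of 13821 genes, with 1498 at an unadjusted p under 0.05, of which 1 was a member; there the covariate and the groups cannot be told apart.

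Over all tested genes 19.5% were lower and 21.1% higher, the shares to set beside each list below. Other genes of fatty acid metabolism, in 9 lists with 111 symbols, gave 100 tested genes, of which 57 were lower, 4 higher and 39 not called, with a median log2 change of -1.03. With the muscle covariate 27 were lower and 1 higher; among the genes named below it ended the calls of Acsf3 (-1.06), Acsl4 (0.79), Acsl5 (0.65), Slc27a4 (0.43), Slc22a5 (-1.02), Ehhadh (-2.13), Plin5 (-2.09), Lpin1 (-0.68), Perm1 (-2.40, adjusted p = 0.0581), Gpihbp1 (-1.03) and Gpd1 (-1.27), in log2 changes. Of 15 further genes of mitochondrial oxidation 12 were lower and 0 higher. Among them Ivd, which oxidizes a leucine product, had 93.4, 110.0 and 137 in the controls and 18.4, 19.5, 30.4 and 23.9 in the MIA libraries (-2.30 ± 0.24, adjusted p = 0.000833, edgeR). Pcca, a subunit of propionyl-CoA carboxylase, fell by 1.58 ± 0.16 (adjusted p = 0.000833). Of 13 tested genes of peroxisomal oxidation 5 were lower and 0 higher, with a median of -0.46. Its lower genes included Phyh, which alpha-hydroxylates branched chains, at 192, 359 and 324 against 39.2, 38.3, 42.3 and 70.9 (-2.61 ± 0.32, adjusted p = 0.00119), and Ehhadh, a peroxisomal bifunctional enzyme, at 4.70, 2.33 and 6.86 against 0.579, 0.431, 1.08 and 0.612 (-2.77 ± 0.44, adjusted p = 0.00256). Neither gene's groups overlapped.

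The uptake and activation genes outside the members moved in both directions. Of 9 further uptake and binding genes, 2 were higher and 3 lower, and of 10 further synthetases and thioesterases, 2 were higher and 4 lower. Over all tested genes 21.1% were higher and 19.5% lower, so the numbers higher here were close to the share of all genes. Fabp5, the fatty acid binding protein of skin and macrophages, had 20.8, 13.8 and 9.28 in the controls and 87.1, 131, 144 and 48.1 in the MIA libraries. All MIA libraries lay above all controls, and Fabp5 rose 6.99-fold (2.81 ± 0.44, adjusted p = 0.00263, edgeR), where Fabp3 fell. Acsl4, a synthetase that prefers arachidonate, rose 1.71-fold, from 4.24, 4.37 and 5.04 to 9.20, 7.42, 7.79 and 6.67 (0.77 ± 0.17, adjusted p = 0.00774). The other higher genes were Acsl5, with 21.5, 15.1 and 12.1 against 28.8, 38.4, 25.1 and 35.6 (0.98 ± 0.24, adjusted p = 0.0134), and Slc27a4 (0.57 ± 0.18, adjusted p = 0.0324); both were chosen after their values were seen. The Acsl5 call was lost without control 3 or control 4 (adjusted p = 0.0616 and 0.0621), and the Slc27a4 call in most fits without 1 library (adjusted p = 0.0552 to 0.131 where lost). Got2, a transaminase also found at the plasma membrane, was lower (-2.07 ± 0.33, adjusted p = 0.00260), as was Acsf3, a mitochondrial malonyl-CoA synthetase (-1.15 ± 0.24, adjusted p = 0.00745), a call that library totals ended (-0.68, adjusted p = 0.0565), as did FPKM in limma (adjusted p = 0.0543). Fabp4, the adipocyte form, had 1209, 600.4 and 646 against 242, 579.7, 322 and 234 (-1.25 ± 0.40, adjusted p = 0.0360); it was chosen after its values were seen, and its call was lost without any 1 library other than MIA 2 (adjusted p = 0.0539 to 0.132).

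Among 5 tested carnitine genes outside the members, 2 were lower and 0 higher. They were Slc22a5, the plasma membrane carnitine transporter, with 3.36, 4.29 and 4.11 against 1.18, 1.37, 2.19 and 1.53 (-1.32 ± 0.24, adjusted p = 0.00408, edgeR), and Aldh9a1, of carnitine synthesis (-1.15 ± 0.17, adjusted p = 0.00198). Acacb, the acetyl-CoA carboxylase at the outer membrane that makes the malonyl-CoA which Mlycd removes, had 16.7, 27.7 and 36.5 against 2.67, 0.930, 4.05 and 4.58. It fell 8.80-fold (-3.14 ± 0.52, adjusted p = 0.00314), while its cytosolic relative Acaca, with 1.59, 2.34 and 2.42 against 1.94, 1.85, 2.86 and 2.55, was not called (0.12 ± 0.24, adjusted p = 0.706). Both carboxylases were chosen after their values were seen. Acacb, which makes malonyl-CoA, and Mlycd, which removes it, were thus both lower with no overlap between groups, whereas the groups of Acaca overlapped.

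Of 17 further regulators 7 were lower and 0 higher. Rxra, the partner receptor of Ppara, had 57.4, 55.9 and 56.0 in the controls and 25.8, 18.2, 29.5 and 24.0 in the MIA libraries (-1.21 ± 0.18, adjusted p = 0.00211, edgeR). Sirt3, the mitochondrial deacetylase, fell by 2.08 ± 0.26 (adjusted p = 0.00126). Esrra, a nuclear receptor of mitochondrial genes, had 46.4, 83.3 and 71.9 against 17.5, 15.2, 27.5 and 17.4 (-1.79 ± 0.27, adjusted p = 0.00218). Perm1, a muscle regulator that acts with Ppargc1a, fell 25.1-fold, from 21.7, 111 and 57.6 to 1.67, 0.314, 5.08 and 3.01 (-4.65 ± 0.90, adjusted p = 0.00620). Esrra and Perm1 were chosen after their values were seen. Groups overlapped in none of these 4.

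Lipid supply and ketone use were lower in part. Of 7 lipolysis and droplet genes 4 were lower and 0 higher, among them Plin5, which ties droplets to mitochondria, at 3.18, 5.36 and 8.58 against 0.525, 0.395, 1.40 and 0.490 (-3.01 ± 0.53, adjusted p = 0.00365, edgeR), and Lpin1, a phosphatidate phosphatase (-1.52 ± 0.35, adjusted p = 0.0105), whose call FPKM in limma ended (-0.89, adjusted p = 0.0508). Of 4 ketone body genes 3 were lower. Oxct1, which activates ketone bodies for use, had 68.4, 132 and 129 against 31.4, 33.3, 43.3 and 29.1 (-1.68 ± 0.28, adjusted p = 0.00285). Gpihbp1, which anchors lipoprotein lipase in capillaries, had 35.3, 22.9 and 26.1 against 18.7, 7.07, 9.36 and 9.26 (-1.34 ± 0.34, adjusted p = 0.0150); it was chosen after its values were seen, and the call was lost without control 2 (adjusted p = 0.0558). Cdh5, a junction protein of the endothelium, was not called (0.18 ± 0.25, adjusted p = 0.586), and 0 of 6 endothelial genes were. Of 10 tested adipocyte genes 2 were lower, Plin4 and Gpd1 (named after their values were seen), and 0 higher, against 19.5% and 21.1% of all tested genes. The summed share of 11 adipocyte genes was 0.129% ± 0.0391 (SD, n = 3) in controls and 0.0529% ± 0.00789 (SD, n = 4) in MIA libraries (exact permutation p = 0.0286, adjusted 0.0856). Plin4 and Gpd1 alone took 0.0843% to 0.101% in controls and 0.00589% to 0.0337% in MIA libraries, whereas the other 9 genes took 0.00766% to 0.0729% and 0.0232% to 0.0499%, with overlap. With the adipocyte list level as a covariate the Fabp4 call was lost (-0.92, adjusted p = 0.135), Plin5 stayed lower (-3.36, adjusted p = 0.00825) and Lpl stayed uncalled (-1.32, adjusted p = 0.213).

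Genes of mitochondrial content outside beta-oxidation fell as well, with 17 of 20 tested genes lower and 0 higher, and a median of -0.99. Vdac1, the outer-membrane channel, fell by 2.66 ± 0.28 (adjusted p = 0.000856, edgeR), and Vdac2 had 158, 197 and 202 in the controls and 76.0, 76.2, 70.9 and 76.5 in the MIA libraries (-1.31 ± 0.18, adjusted p = 0.00156). With scaling by library totals 8 genes of this list were called lower. The 13 mitochondrially encoded genes took 12.5% ± 1.09 (SD, n = 3) of the counts in controls and 8.76% ± 2.04 (SD, n = 4) in MIA libraries (exact permutation p = 0.0857, adjusted 0.11). Whether the members fell more than mitochondrial genes in general was not tested.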

How the data were processed

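RNA-seq of 7 rat synovium libraries was analysed, 3 control and 4 MIA, grouped and numbered by the labels. The deposited table holds, per the file headers, a whole-number count per gene and library and an FPKM value; the counts were tested, and the deposited FPKM, computed by the authors with no formula stated, served for levels and for 1 alternative. Build Rnor_6.0 is listed in the submitters' processing notes, as are DESeq2 1.26.0, HTSeq 0.11.2 and HISAT2, with no roles. How strands were counted, and with which annotation, is not given in the sources used here. Counts of overlapping antisense genes and of near-identical copies are therefore uncertain. Library totals ran from 13870822 to 16261089 counts.

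The members and all lists were chosen with earlier results of these data known. Genes were filtered with filterByExpr (14054 of 20660 kept), scaled by TMM and tested with the edgeR 4.0.16 quasi-likelihood test in R 4.3.3 with Benjamini-Hochberg adjustment over all tested genes and a threshold of 0.05; the common biological coefficient of variation was 36.7%. The SE of a log2 change is its size divided by the square root of F. Shares of counts in marker lists were compared by an exact two-sided permutation test. Data with 14054 genes were also simulated, 100 of them changed 2-fold and 100 changed 4-fold, far fewer than were called in the data. Of the genes changed 2-fold 11.3% were called, and of those changed 4-fold 63.5%. Among the calls 2.7% were false and 0 had the wrong direction. All 32 members are named, with the 2 tested genes of smallest p of each other pathway list and, of each marker list, the gene of highest mean FPKM; any further gene is marked as picked after its values were known. A gene that this rule names is not reported here. Of the 111 symbols of the other pathway lists 106 matched, 1 of them by a synonym.

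Each result was recomputed with library totals, median-of-ratios factors or TMM without muscle and mitochondrially encoded genes, with no filter or a stricter one, with DESeq2 1.42.0, voom of limma 3.58.1 or limma on log2(FPKM + 1), with a replicate block, with a covariate (the level of the muscle list or of the adipocyte list), and without each library in turn. The muscle covariate without MIA 2, and marker shares without the genes that dominate them, were added after seeing the data. Promoter sequences are those of RefSeq, build GRCr8, which is not the build of the files, and were matched by symbol for 26 of 31 members. Their motifs were counted in Python 3.11.15 with pandas 2.3.3, and figures drawn with matplotlib 3.10.9.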

Additional observations from a re-analysis of the deposited data

Results flagged for a closer look

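Dixon's 95% critical value for 4 values is 0.829 of the range. In 8 of the 78 sets of 4 MIA values examined, 1 library stood apart from the other 3 by more than that. Chance does so in about 1 of 20 sets of independent, normal values. These sets come from the same 4 libraries and partly overlap, so that rate cannot be applied to them. MIA 2 was high in Lpl (scaled FPKM 156, with 27.1, 35.4 and 37.9 in MIA 1, 3 and 4), in the brown fat gene Cidea (11.4) and in the share of 2 brown adipocyte genes (0.000715% of counts), of which Cidea is 1. For Cidea the controls had 17.2, 15.5 and 21.9, and for the share 0.000866%, 0.000757% and 0.00105%. MIA 2 lay below every control in both. MIA 3 was high in Ppargc1a (1.36) and Plin5 (1.40) and low in Vdac2 (70.9) and in the share of fibroblast genes (4.02%). MIA 4 was high in Phyh (70.9). These values are given without an explanation.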

How the results depend on the processing

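Of the members, 27 were called lower, and 23 to 28 under 10 of the 11 other settings that kept all libraries; without each library in turn the number was 23 to 27. The muscle covariate gave 16, and 0 once MIA 2 was left out as well. The cause of each change below was not tested. Calls over all genes were 2972 higher and 2739 lower; with library totals they were 5235 and 1448 (78.3% of calls higher against 52%, median of all genes 0.51 against 0.07), with limma on FPKM 4792 and 1577 (75.2%, median 0.30), with the muscle covariate 1220 and 935 (0 and 0 without MIA 2), and without each library 1637 to 2923 and 1734 to 2766, fewest without control 4. Other pathway genes called higher numbered 4, but 10 with library totals and with FPKM, 1 with the muscle covariate (0 without MIA 2) and 2 to 6 without each library; 57 were lower, but 27 with the muscle covariate and 0 with it and without MIA 2. Log2 changes that turned sign under the muscle covariate without MIA 2 were Fabp3 (1.62), Acads (0.052), Etfb (0.20), Ppara (2.15), Ppargc1a (1.40), Slc22a5 (0.13), Lpin1 (0.21), Cfd (-1.12), Cdh5 (-0.46), Myh6 (4.18), Hba-a2 (-5.53), Slc27a4 (-0.19) and Prg4 (0.46). With all libraries that covariate turned Acta1 (0.52), Cfd (-0.28) and Hba-a2 (-1.38). Acta1 belongs to the muscle list that makes the covariate, so no reading is drawn from its sign there. Cpt1a turned with library totals (0.19) and FPKM (0.17), Prg4 with library totals (0.018) and Acaca with the adipocyte covariate (-0.0015). Without each library Cfd ran from -0.10 to 1.29, Hba-a2 from -0.012 to 0.86, Acaca from -0.056 to 0.22 and Prg4 from -1.63 to 0.021. Deviations from the group mean correlated at 0.245, 0.097 and 0.043 between same-numbered libraries, and at -0.237 to 0.186 between the others. So few correlations cannot tell whether libraries of 1 number share a source, and the labels name none. A replicate block gave 26 members lower and 4562 genes called, with Ucp3 at -5.30 and Hba-a2 at -0.50. With 3 against 4 libraries the smallest exact p of the permutation test is 0.0286. In the simulated data 11.3% of 2-fold changes were called. Far fewer genes were changed there than were called here, which makes the adjustment stricter. That share therefore does not give the power in these data.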

Other observations

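Acsl6, an acyl-CoA synthetase of brain and muscle, had a scaled FPKM of 8.56, 14.4 and 9.46 in the controls and 1.74, 0.178, 2.58 and 2.54 in the MIA libraries, with no overlap (log2 change -2.61 ± 0.69, adjusted p = 0.0202, edgeR); it was chosen after its values were seen. The call was lost without control 3, control 4 or MIA 1 (adjusted p = 0.0545 to 0.0711), with no filter (0.0584) and with the muscle covariate (-0.44, adjusted p = 0.386). MIA 2 held the lowest level. Plin4, a lipid droplet protein of fat and muscle, had 56.8, 89.1 and 97.9 against 9.58, 4.32, 7.32 and 10.8 (-3.34 ± 0.35, adjusted p = 0.000833), whereas Cfd, an abundant adipocyte protein, had 276, 36.6 and 112 against 150.4, 257, 174 and 146 and was not called (0.36 ± 0.58, adjusted p = 0.642).

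Other marker genes give the setting. Col3a1, a fibrillar collagen, was higher (3.80 ± 0.60, adjusted p = 0.00244, edgeR), whereas Clic5 of the same list was lower (-2.29). C1qc, a complement gene of macrophages, was called higher with overlapping groups (1.08 ± 0.30, adjusted p = 0.0212). Its call was lost without control 3 (adjusted p = 0.0912) or control 4 (0.0823), with the replicate block (0.0539) and with the adipocyte (0.0573) or muscle covariate (0.259). Prg4, lubricin of the synovial lining, spanned 58.1 to 1518 within the MIA group, with MIA 2 highest, and was not called (-0.42 ± 0.98, adjusted p = 0.756); it was chosen after its values were seen. Myh6, a cardiac myosin heavy chain with close relatives among the muscle myosins, was the single tested cardiac gene and was lower (-3.59 ± 1.03, adjusted p = 0.0260), at levels of 3.72 or less and with overlapping groups. That call was lost without control 3, control 4 or MIA 3 (adjusted p = 0.0557 to 0.107), with no filter (0.0563) and with the adipocyte (0.0552) or muscle covariate (0.286). The summed share of 5 cardiac genes gave an exact permutation p of 0.0571. Hba-a2, a haemoglobin chain, was not called (0.46 ± 0.81, adjusted p = 0.674), and the share of 4 blood genes ran from 0.288% to 2.51% across the MIA libraries (exact permutation p = 0.400 between groups). The share of the 6 endothelial genes was 0.0781% ± 0.0251 (SD, n = 3) in controls and 0.121% ± 0.0360 (SD, n = 4) in MIA libraries (exact permutation p = 0.171), and that of the 2 brown adipocyte genes gave 0.0571.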
